A study of Homo sapiens with 12 samples.

Results

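The 10 genes described here belong to bone morphogenetic protein (BMP) signalling. They were chosen by name from the 19923 genes counted in each library, with earlier results of these data known. They comprise the ligands BMP4 and BMP7, the receptor BMPR1B, the secreted antagonist NOG, the inhibitory SMAD6 and the signal transducer SMAD9. The others are the target genes ID1, ID2, ID3 and ID4. Polyadenylated RNA was sequenced from SK-N-BE2 and NGP, both established human neuroblastoma cell lines with amplified MYCN, labelled as wild type for genotype. SK-N-BE2 was kept for 6 days with 12 µM STM2457 and NGP for 6 days with 1 µM STM2457, and the control of each line received DMSO for 6 days. The compound STM2457 inhibits METTL3, the catalytic subunit of the complex that adds m6A (N6-methyladenosine) to mRNA. There were 3 replicates per group and 12 libraries over the 4 groups. The labels do not say that the replicates were separate cultures, so p-values measure the spread between these libraries, which may be technical. Each line is represented by 1 dose, so a difference by line cannot be told apart from one by dose. The headers of the files also carry a different code for each line, which may mark a sequencing run. A difference by line cannot be told apart from one by such a batch either.

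BMP ligands bind a pair of receptor kinases at the cell surface, which phosphorylate the receptor-regulated SMADs (SMAD1, SMAD5 and SMAD9). These join SMAD4, enter the nucleus and switch on genes such as ID1, ID2, ID3 and SMAD6. ID proteins lack a DNA-binding region and hold E-proteins (TCF3, TCF4 and TCF12) away from the tissue-specific basic helix-loop-helix (bHLH) factors that drive neuronal differentiation, while SMAD6 feeds back to damp the pathway. BMP signals from the dorsal aorta start the sympathetic lineage from which neuroblastoma arises.

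The reference sequence before 4 of these genes is shown because SMADs are known to bind short motifs near BMP target genes. The letters GTCTAGAC are a palindromic SMAD-binding element, and GGCGCC is the core of a GC-rich element known from BMP-responsive genes. Start sites and promoter windows came from RefSeq on GRCh38, which held 8 of the 10 members. Both motifs read the same on both strands. Capitals mark the motif, and each sequence is printed 5′ to 3′ on the plus strand, on which all 4 genes lie.
SMAD6, chr15:66702179-66702235: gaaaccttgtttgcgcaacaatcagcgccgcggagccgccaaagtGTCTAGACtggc
ID1, chr20:31604279-31604374: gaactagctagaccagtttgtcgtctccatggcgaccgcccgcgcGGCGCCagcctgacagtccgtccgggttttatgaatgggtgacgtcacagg
ID2, chr2:8681603-8681698: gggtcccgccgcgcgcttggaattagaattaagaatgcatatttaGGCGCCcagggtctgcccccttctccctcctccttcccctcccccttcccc
ID4, chr6:19836817-19836912: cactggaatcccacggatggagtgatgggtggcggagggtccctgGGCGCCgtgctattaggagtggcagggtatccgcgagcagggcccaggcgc

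The palindrome lay 12 bases before the SMAD6 start, and SMAD6 was the 1 matched member that held it. Over all genes, 0.192% of the 300-base promoter windows and 1.17% of the 2000 bases before a start held these letters. Distances are counted from the RefSeq start, and for ID2 and BMP4 this start lies inside the span of the counted gene given below, as do the matches before it. GGCGCC began 965 bases before the RefSeq start of ID1, 408 before that of ID2 and 508 before that of ID4, and the stretch before ID1 overlaps an exon of an unnamed long non-coding RNA. It was also found 4 times before the RefSeq start of SMAD6 and 2 times before that of BMP4, so 5 of the 8 matched members held it in 2000 bases, against 44.7% of all genes. No match was found in that stretch before ID3, SMAD9 or BMPR1B. The composite BMP response motif, GGCGCC followed by any 5 bases and then GTCT, was searched on both strands. It matched no member in these 2000 bases and 0.332% of genes. Other spacings were not searched, and in the printed ID2 stretch a GTCT follows GGCGCC at a shorter spacing. These matches are descriptions of letters, and binding was not measured.

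Sites that m6A could occupy are shown because METTL3 methylates adenosines within short motifs, of which GGACT is a common form. On the sense strand of the canonical transcripts in GENCODE 44, ID1 held 0 GGACT sites in 983 bases. ID2 held 2, ID3 held 3 and ID4 held 4. Per kilobase, ID3 had 3.16 sites, ID2 1.54 and ID4 1.03, against a median of 0.923 over 18999 transcripts, of which 88.5% had a site. With 3 sites in 950 bases, ID3 thus had more GGACT sites per kilobase than 98.4% of genes, while ID1 stood among those without one. Other forms of the motif were not searched, so ID1 may hold sites of another form. Among the other members, BMP4 had 3.11 sites per kilobase, BMP7 1.49, SMAD9 0.720, BMPR1B 0.717, NOG 0.523 and SMAD6 0.522. One site of each ID transcript that has any is printed with its flanks, with GGACT in capitals. The ID2 site lies in the coding sequence, and the ID3 and ID4 sites lie after the stop codon.
ID2: agatcgccctGGACTcgcatcccac
ID3: caggagcgaaGGACTgtgaacttgt
ID4: aagtgtgacaGGACTgataaataga
Methylation was not measured here, and a site says nothing of whether it was methylated.

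The libraries held between 47242379 and 58159937 counted reads. METTL3 RNA, which is not a check on the drug since STM2457 acts on the protein, went in SK-N-BE2 from 54.3 ± 3.19 CPM in the controls to 79.9 ± 1.42 CPM in the treated libraries (SD, n = 3), and in NGP from 40.6 ± 3.70 to 76.6 ± 2.39 CPM. CPM gives the reads of a gene relative to the library total, scaled between libraries by TMM. Of 8 adrenergic neuroblastoma markers, 7 reached 1 CPM in each group. TH, the rate-limiting enzyme of catecholamine synthesis, did not reach it in NGP, at 0.514 ± 0.380 CPM with DMSO against 235 ± 30.8 CPM in SK-N-BE2. NGP DMSO replicate 1 stood apart from the other NGP DMSO libraries. Leaving it out changed no call among the members in NGP, in the difference between lines or between the DMSO groups.

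To determine how the members responded, STM2457 was compared with DMSO within each line by edgeR's quasi-likelihood test, with a gene called at a Benjamini-Hochberg adjusted p under 0.05 over all genes. In SK-N-BE2, 7 of the 9 members tested were called, 4 higher (SMAD6, SMAD9, ID3 and ID4) and 3 lower (BMPR1B, ID1 and ID2), and 54.7% of all tested genes were called, 26.9% higher and 27.8% lower. In NGP, 7 of 9 were called, 5 higher (SMAD6 and ID1 to ID4) and 2 lower (BMP7 and BMPR1B), against 41.7% of all genes, 19.4% higher and 22.2% lower. The median log2 fold change of the members tested was 0.77 in SK-N-BE2 and 0.73 in NGP, against -0.02 and -0.03 over all tested genes. Because the members were chosen with earlier results known, these counts and medians are descriptions only. STM2457 and DMSO libraries did not overlap for 8 of 9 members in SK-N-BE2 and 7 of 9 in NGP, against 62.2% and 54.7% of all genes. NOG was not tested because of its low counts.

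SMAD6, ID3 and ID4 rose in both lines, as did 10.5% of the genes tested in both. BMPR1B fell in both, as did 10.8%. ID1 and ID2 moved in opposite directions, as did 4.96% of genes. The response in SK-N-BE2 minus that in NGP was called different from 0 for 8 of 9 members, 4 higher and 4 lower, where 30.9% of all genes were called, 17.0% higher and 13.9% lower. This difference uses the same DMSO libraries as the comparisons within each line.

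**Figure D1:**
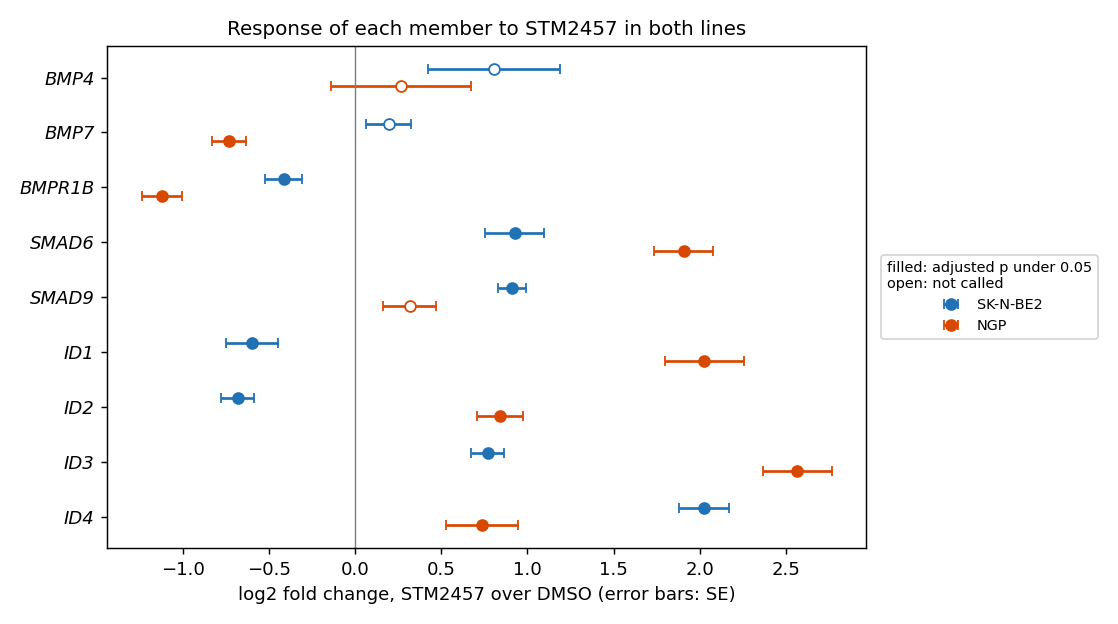
The log2 fold change of STM2457 over DMSO (x axis) is shown for the 9 tested members (y axis) in each line, with bars of 1 SE; filled points had an edgeR adjusted p under 0.05. ID1 and ID2 lie on opposite sides of 0 in the 2 lines, with values of -0.60 and -0.68 for SK-N-BE2 against 2.03 and 0.84 for NGP, while ID3, ID4 and SMAD6 lie above 0 in both.

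Among the ligands, BMP7 separated the lines more than the treatments. BMP7 (chromosome 20, 57168753 to 57266641, minus strand, GRCh38), a secreted ligand that acts in kidney and eye development, measured 6.69, 6.52 and 7.53 CPM in the SK-N-BE2 DMSO libraries and 8.59, 8.31 and 7.42 CPM with STM2457. Its NGP levels were 137, 128 and 138 CPM in the controls and 75.5, 88.5 and 77.9 CPM in the treated libraries. Every NGP library lay above every SK-N-BE2 library, and within NGP all treated libraries lay below all controls, while the SK-N-BE2 groups overlapped. The NGP log2 fold change was -0.73 (SE 0.10, adjusted p = 0.000703 by edgeR), against 0.19 (SE 0.13, adjusted p = 0.221) in SK-N-BE2, and the difference between lines was 0.94 (SE 0.14, adjusted p = 0.000217 by edgeR). With DMSO alone, BMP7 was 19.4-fold lower in SK-N-BE2 than in NGP (log2 difference -4.28, SE 0.11, adjusted p = 6.06e-13 by edgeR), where 6 of 9 members and 71.1% of all genes were called.

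BMP4 (chromosome 14, 53949736 to 53958761, minus strand), a ligand of neural crest and sympathetic development, had few reads in both lines. Its libraries held 15, 24 and 20 reads in SK-N-BE2 with DMSO, 36, 38 and 32 with STM2457, 36, 20 and 35 in NGP with DMSO and 33, 22 and 51 with STM2457. The treated SK-N-BE2 libraries all lay above their controls (0.675 ± 0.0660 against 0.378 ± 0.112 CPM), without passing the test (log2 fold change 0.80, SE 0.38, adjusted p = 0.0915 by edgeR). In NGP the groups overlapped, at a log2 fold change of 0.27 (SE 0.41, adjusted p = 0.631 by edgeR). These values are uncertain for a further reason: 16.3% of the BMP4 exon length overlaps a long non-coding RNA on the other strand, and no strand option was set in counting.

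BMPR1B fell in both lines. BMPR1B (chromosome 4, 94757955 to 95158448, plus strand), a type I receptor kinase of the pathway, measured 82.7, 69.7 and 59.3 CPM in SK-N-BE2 with DMSO and 52.4, 56.3 and 54.2 CPM with STM2457. The NGP controls held 98.3, 123.5 and 120.3 CPM and the treated NGP libraries 54.7, 49.9 and 52.2 CPM. The treated groups of both lines thus lay close together and overlapped, while the DMSO libraries of NGP all lay above those of SK-N-BE2. BMPR1B fell by 0.41 on the log2 scale in SK-N-BE2 (SE 0.11, adjusted p = 0.00527 by edgeR) and by 1.12 in NGP (SE 0.12, adjusted p = 0.000167). The difference between lines was 0.72 (SE 0.17, adjusted p = 0.00483 by edgeR).

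NOG (chromosome 17, 56593699 to 56595611, plus strand), which encodes noggin, a secreted antagonist that binds BMP ligands, had 0 reads in 11 libraries and 2 reads in SK-N-BE2 STM2457 replicate 3. If reads were counted independently, a count of 0 would allow up to 3 reads, for counting error only. These correspond to between 0.0527 and 0.0635 CPM in these libraries. Both reads of a fragment could be counted, so this limit is too low. No difference between groups was detectable at this depth.

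SMAD6 rose in both lines and further in NGP. SMAD6 (chromosome 15, 66702236 to 66782849, plus strand), an inhibitory SMAD and feedback target of the pathway that carries the palindrome printed above, measured 4.48, 3.33 and 5.21 CPM in SK-N-BE2 with DMSO and 8.83, 7.29 and 9.26 CPM with STM2457. The NGP controls held 12.5, 8.38 and 11.2 CPM, and the treated libraries 38.4, 45.4 and 36.2 CPM. All treated libraries lay above the controls of their line, and the treated SK-N-BE2 libraries only reached the range of the NGP controls. SK-N-BE2 showed a log2 fold change of 0.93 (edgeR adjusted p = 0.000507, SE 0.17) and NGP one of 1.91 (adjusted p = 8.62e-05, SE 0.17), with a difference of -0.97 (SE 0.26, adjusted p = 0.0106).

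SMAD9 (chromosome 13, 36844831 to 36920765, minus strand) is a receptor-regulated SMAD, which carries BMP signals and is not an inhibitory SMAD. It measured 73.5, 64.4 and 67.4 CPM in SK-N-BE2 with DMSO and 129, 133 and 133 CPM with STM2457, a rise of 0.91 on the log2 scale (SE 0.08, adjusted p = 8.82e-07 by edgeR). NGP libraries held 71.2, 99.96 and 107 CPM without the drug and 116, 106 and 124 CPM with it. The SK-N-BE2 groups stood well apart, while in NGP treated replicate 2 lay just below control replicate 3. The NGP log2 fold change was 0.32 (SE 0.15, adjusted p = 0.132 by edgeR), and 0.16 (adjusted p = 0.106) without NGP DMSO replicate 1, the lowest control. The difference between lines was 0.60 (SE 0.18, adjusted p = 0.0183 by edgeR). It was not called without SK-N-BE2 DMSO replicate 2 (adjusted p = 0.0571), SK-N-BE2 DMSO replicate 3 (0.0518) or NGP DMSO replicate 3 (0.0534).

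**Figure D2:**
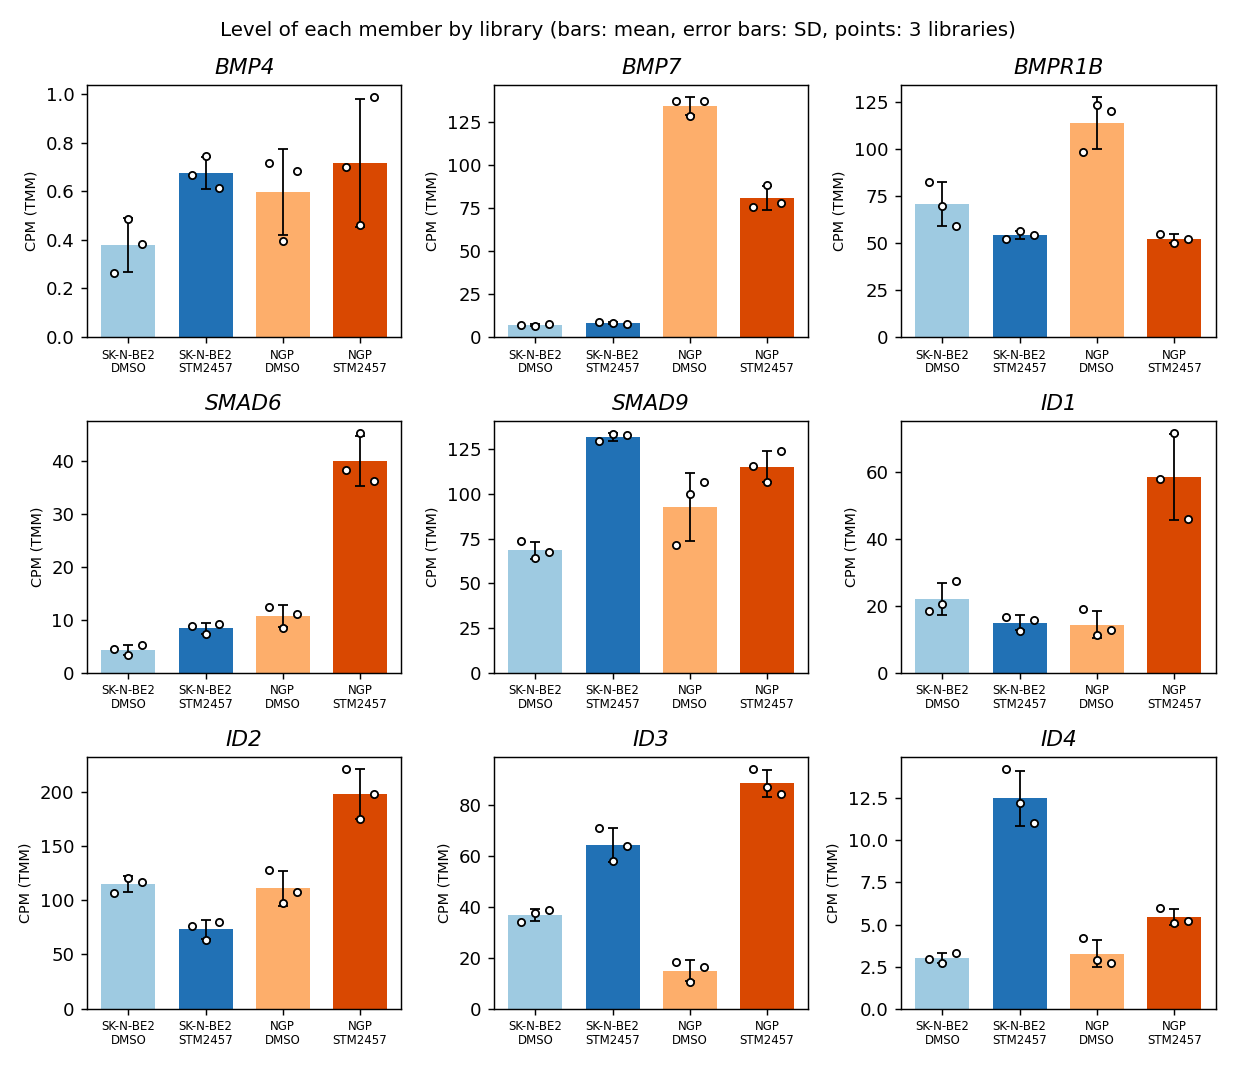
Each panel gives the CPM (y axis, TMM-scaled, from 0) of 1 member in the 4 groups (x axis), with bars for the mean, error bars for the SD and points for the 3 libraries of a group. BMP7 lies higher in every NGP library than in any SK-N-BE2 library, at 134 CPM in NGP DMSO, and ID3 ranges from 14.9 CPM in NGP DMSO to 88.5 CPM in NGP STM2457.

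The 4 ID genes encode inhibitors of bHLH factors, and all 4 rose in NGP, while in SK-N-BE2 ID3 and ID4 rose and ID1 and ID2 fell. The median log2 fold change of the 4 was 1.43 in NGP and 0.08 in SK-N-BE2. ID1 (chromosome 20, 31605283 to 31606515, plus strand) is a target often used to read BMP activity. It measured 18.5, 20.5 and 27.4 CPM in SK-N-BE2 with DMSO and 16.7, 12.5 and 15.7 CPM with STM2457. In NGP it measured 19.1, 11.4 and 12.8 CPM with DMSO and 58.1, 71.9 and 46.1 CPM with STM2457. The NGP treated libraries were the highest of all, and in SK-N-BE2 the gap between the nearest treated and control libraries was small. ID1 fell by 0.60 on the log2 scale in SK-N-BE2 (SE 0.15, adjusted p = 0.00414 by edgeR) and rose by 2.03 in NGP (SE 0.23, adjusted p = 0.000277). The difference of -2.61 (SE 0.30, adjusted p = 2.71e-05 by edgeR) had the greatest size among the members.

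ID2 (chromosome 2, 8678845 to 8684461, plus strand) is known in neuroblastoma for its links to MYCN and the retinoblastoma protein. It measured 106.5, 120.7 and 117 CPM in SK-N-BE2 with DMSO and 76.1, 63.5 and 80.03 CPM with STM2457. In NGP it measured 128, 96.9 and 107 CPM with DMSO and 221, 175 and 198 CPM with STM2457. The controls of both lines overlapped, and the treated libraries lay below them in SK-N-BE2 and above them in NGP. ID2 fell by 0.68 on the log2 scale in SK-N-BE2 (SE 0.10, adjusted p = 5.90e-05 by edgeR) and rose by 0.84 in NGP (SE 0.13, adjusted p = 0.00152), a difference of -1.51 (SE 0.17, adjusted p = 2.38e-05). With DMSO, ID2 differed by 0.05 between the lines (SE 0.12, adjusted p = 0.727 by edgeR). The antisense gene ID2-AS1 overlaps 6.55% of the ID2 exon length and could not be told apart in unstranded counts, and a pseudogene, ID2B, lies on chromosome 3.

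ID3 rose in both lines. ID3 (chromosome 1, 23557926 to 23559501, minus strand), another early BMP target, measured 34.1, 37.6 and 38.6 CPM in SK-N-BE2 with DMSO and 70.9, 57.8 and 63.9 CPM with STM2457. Its NGP levels were 18.3, 10.4 and 16.2 CPM in the controls and 94.2, 87.05 and 84.1 CPM in the treated libraries. No 2 neighbouring groups overlapped in the order NGP STM2457, SK-N-BE2 STM2457, SK-N-BE2 DMSO, NGP DMSO. SK-N-BE2 showed a log2 fold change of 0.77 (edgeR adjusted p = 1.95e-05, SE 0.10) and NGP one of 2.57 (adjusted p = 4.22e-05, SE 0.20), or 1.70-fold and 5.93-fold. The difference of -1.79 passed the test (SE 0.23, adjusted p = 5.16e-05 by edgeR), and with DMSO the level was 2.46-fold higher in SK-N-BE2 (log2 difference 1.30, SE 0.16, adjusted p = 5.29e-06).

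ID4 had the reverse balance, with the greater rise in SK-N-BE2. ID4 (chromosome 6, 19837370 to 19842197, plus strand), which has a role in neural precursors, measured 2.97, 2.72 and 3.30 CPM in SK-N-BE2 with DMSO and 14.3, 12.2 and 11.01 CPM with STM2457. In NGP it measured 4.22, 2.90 and 2.71 CPM with DMSO and 6.01, 5.11 and 5.21 CPM with STM2457. The controls of both lines overlapped, the treated libraries of each line lay above them, and those of SK-N-BE2 were the highest. ID4 rose by 2.02 on the log2 scale in SK-N-BE2 (SE 0.15, adjusted p = 1.55e-07 by edgeR), or 4.07-fold, and by 0.73 in NGP (SE 0.21, adjusted p = 0.0221), a difference of 1.30 (SE 0.26, adjusted p = 0.00178). In NGP the rise no longer passed without NGP DMSO replicate 2 (adjusted p = 0.0596), NGP DMSO replicate 3 (0.0826), NGP STM2457 replicate 1 (0.0887) or NGP STM2457 replicate 3 (0.0572).

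Per kilobase of exon, the scale on which levels of different genes were compared, ID2 was the most abundant ID transcript except in SK-N-BE2 with STM2457. There ID3 made up 47.0 ± 1.54% of the 4 ID transcripts and ID2 36.2 ± 1.84%, whereas with DMSO ID2 made up 54.6 ± 2.31% and ID3 25.9 ± 0.476% (SD, n = 3). In NGP, ID2 went from 69.3 ± 2.72% with DMSO to 45.3 ± 4.52% with STM2457, and ID3 from 13.6 ± 2.02% to 29.9 ± 0.479%. ID4 stayed the smallest share, at most 3.55 ± 0.479%, in SK-N-BE2 with STM2457.

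The 4 summed to 86.7, 97.0 and 102 CPM per kilobase in SK-N-BE2 with DMSO and 99.02, 80.6 and 94.5 with STM2457, groups that overlapped. In NGP they summed to 86.6, 60.7 and 70.4 CPM per kilobase with DMSO and 212, 197 and 184 with STM2457, and all treated libraries lay above all controls. In SK-N-BE2 the treated libraries thus held more ID3 and ID4 and less ID1 and ID2 at overlapping sums, while in NGP all 4 contributed to a higher sum. The sums themselves were not tested.

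**Figure D3:**
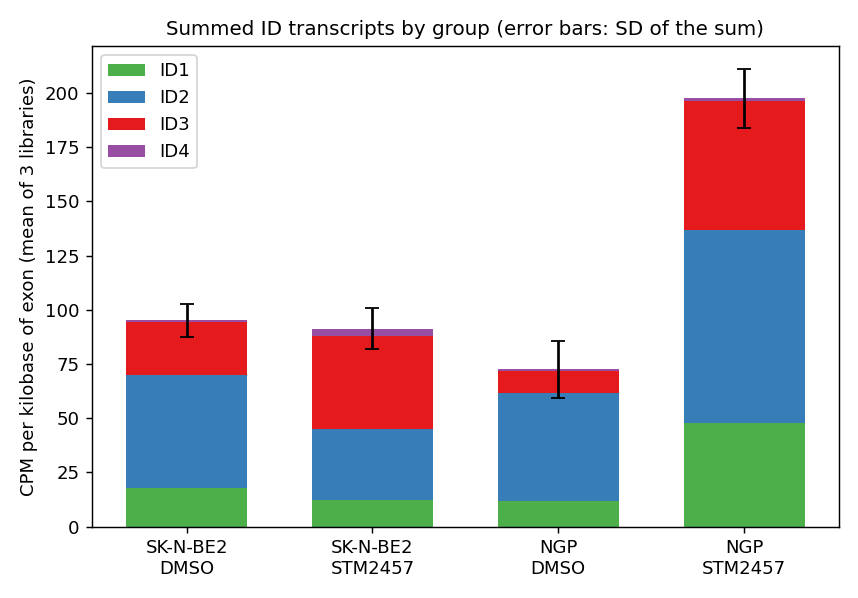
Stacked bars give the mean CPM per kilobase of exon (y axis, from 0) of ID1, ID2, ID3 and ID4 in the 4 groups (x axis, 3 libraries each), and error bars the SD of the sum. SK-N-BE2 summed to 95.1 with DMSO and 91.4 with STM2457, and NGP to 72.6 and 198.

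Genes whose profile over the 12 libraries lay nearest to each ID gene were found by the root-mean-square (RMS) difference of centred log2 CPM among 10894 genes that averaged 5 CPM or more. For ID1 they were SHISA3 (RMS difference 0.27) and BTD (0.39), and for ID2 they were DKK3 (0.14) and FTL (0.17). For ID3 they were ZCCHC24 (0.27) and PCDH18 (0.30), and for ID4 they were DOK3 (0.24) and SLC2A6 (0.29). The ID genes themselves varied with an SD of 0.89, 0.55, 1.05 and 0.88 in the same order. Most of this variation separates 4 groups, so the likeness rests on few independent points. Among the members, compared without this limit on level and with NOG left out, the profiles of BMP4 and SMAD9 (0.41) and of ID1 and ID2 (0.48) were closest. BMP4 averaged only between 0.378 and 0.717 CPM per group, so its profile and its likeness to SMAD9 are uncertain.

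To place the members in their pathway, 87 further genes in 6 lists were counted. Of these, 17 were called higher and 22 lower of 63 tested in SK-N-BE2, and 22 higher and 15 lower of 69 in NGP (39 of 63 and 37 of 69 called in either direction, beside 54.7% and 41.7% of all genes). Among the other ligands, 1 of 7 rose and 2 fell in SK-N-BE2, and 3 of 8 rose and 1 fell in NGP. GDF11, a ligand that signals mainly through activin-type SMADs, rose in both, by 0.90 (SE 0.09, adjusted p = 4.18e-06 by edgeR) and 0.72 (SE 0.11, adjusted p = 0.000981) on the log2 scale. BMP5, a close relative of BMP7, went from 8 to 326 reads over 3 NGP libraries each (log2 fold change 5.35, SE 0.40, adjusted p = 3.76e-05 by edgeR). In SK-N-BE2 BMP5 went from 7.78 ± 0.203 to 6.17 ± 0.392 CPM (log2 fold change -0.37, edgeR adjusted p = 0.0232), a call lost in the joint fit (0.113) and without STM2457 replicate 1 (0.0987) or 3 (0.0625). BMP6 fell in SK-N-BE2 from 2.91 ± 0.521 to 1.06 ± 0.0869 CPM (edgeR adjusted p = 0.000122), and had 1 read in each NGP group. GDF6 fell in NGP from 3.91 ± 0.416 to 2.36 ± 0.562 CPM (edgeR adjusted p = 0.0302), a call lost without DMSO replicate 3 (0.0882), STM2457 replicate 1 (0.0948) or STM2457 replicate 3 (0.114), and in the joint fit (0.0848).

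Among receptors and co-receptors, all 9 tested were called in SK-N-BE2, 4 higher and 5 lower, beside 54.7% of all genes called there. In NGP 3 of 10 rose and 4 fell, beside 41.7% of all genes called. ENG, or endoglin, a co-receptor best known in endothelium, rose from 34.6 ± 1.99 to 54.9 ± 5.79 CPM in SK-N-BE2 (edgeR adjusted p = 0.000117) and from 0.999 ± 0.312 to 8.79 ± 0.476 CPM in NGP (adjusted p = 4.04e-05). ACVRL1, an endothelial type I receptor, fell by 0.46 on the log2 scale in SK-N-BE2 (SE 0.13, adjusted p = 0.00725 by edgeR) and rose by 1.94 in NGP (SE 0.24, adjusted p = 0.000411). Its fall in SK-N-BE2 did not pass in a joint fit of all 12 libraries (-0.43, edgeR adjusted p = 0.0647). The responses differed between lines by -2.49 for ENG (edgeR adjusted p = 3.52e-06) and -2.40 for ACVRL1 (adjusted p = 1.79e-05). Of 4 endothelial markers, the summed level went from between 16.2 and 21.6 to between 10.0 and 12.3 CPM in SK-N-BE2. In NGP it went from between 0.0789 and 0.273 to between 2.27 and 3.26 CPM. There KDR, a VEGF receptor, made up most of the sum, going from 0.118 ± 0.103 to 2.36 ± 0.157 CPM, while with STM2457 CDH5 was at 0.413 ± 0.392, VWF at 0.0552 ± 0.0256 CPM and PECAM1 at 0 reads. The part of endothelial markers in these results was not tested.

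The type I receptor BMPR1A rose by 0.28 in SK-N-BE2 (SE 0.08, adjusted p = 0.00981 by edgeR) and by 0.47 in NGP (SE 0.13, adjusted p = 0.0206), the opposite direction to BMPR1B. In NGP this call was lost without STM2457 replicate 1 (adjusted p = 0.0932) or 3 (0.0736). The type II receptor BMPR2 showed a response of 0.23 on the log2 scale in SK-N-BE2 (SE 0.09, adjusted p = 0.0444 by edgeR) and 0.05 in NGP (SE 0.22, adjusted p = 0.882). The NGP value was -0.20 (adjusted p = 0.0173) without NGP DMSO replicate 1, and in SK-N-BE2 the rise no longer passed without any of 5 libraries: DMSO replicate 2 (0.0864) or 3 (0.143) and STM2457 replicate 1 (0.0509), 2 (0.193) or 3 (0.0902). It also did not pass with upper-quartile scaling (edgeR adjusted p = 0.105) or in the joint fit (0.250). ACVR1 fell by 0.43 in SK-N-BE2 (SE 0.10, adjusted p = 0.00217 by edgeR) and had -0.19 (SE 0.11, adjusted p = 0.190) in NGP. RGMA, a co-receptor, fell by 1.09 in NGP (SE 0.26, adjusted p = 0.0105 by edgeR) and had 8 and 29 reads in the SK-N-BE2 groups. Its relative RGMB fell by 0.48 and 0.56 (edgeR adjusted p = 0.000433 and 0.00193), with 45.8% of its exon length shared with another gene and its value therefore uncertain.

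Among the other SMADs and regulators, 1 of 16 rose and 7 fell in SK-N-BE2, beside 26.9% and 27.8% of all genes. In NGP 2 rose and 4 fell, beside 19.4% and 22.2% of all genes. Of SMAD1, SMAD4 and SMAD5, which carry the signal with SMAD9, SMAD1 in NGP was the 1 call. SMAD5 had log2 fold changes of -0.19 (SE 0.08, adjusted p = 0.0681 by edgeR) and -0.12 (SE 0.20, adjusted p = 0.678), and SMAD4 0.22 (SE 0.09, adjusted p = 0.0675) and -0.08 (SE 0.11, adjusted p = 0.612), in SK-N-BE2 and NGP. SMAD5 was called lower in NGP without NGP DMSO replicate 1 (log2 fold change -0.35, edgeR adjusted p = 0.00192) and in SK-N-BE2 without DMSO replicate 3 (-0.24, adjusted p = 0.0314) or with upper-quartile scaling (-0.24, adjusted p = 0.0212), and SMAD4 higher in SK-N-BE2 without DMSO replicate 2 (0.26, adjusted p = 0.0342). SMAD1 had 0.18 in SK-N-BE2 (SE 0.10, adjusted p = 0.144 by edgeR), called without DMSO replicate 2 (0.27, adjusted p = 0.0240), and fell by 0.43 in NGP (SE 0.12, adjusted p = 0.0216). It no longer passed in NGP without DMSO replicate 2 (0.0612) or 3 (0.0703) or STM2457 replicate 1 (0.0975) or 3 (0.0965).

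SMAD7, the other inhibitory SMAD, fell by 0.36 in SK-N-BE2 (SE 0.12, adjusted p = 0.0208 by edgeR) and rose by 0.45 in NGP (SE 0.11, adjusted p = 0.0141), unlike SMAD6, which rose in both. The SMAD7 difference was -0.79 (SE 0.16, adjusted p = 0.00224 by edgeR). In SK-N-BE2 the fall no longer passed without DMSO replicate 3 (adjusted p = 0.0864) or STM2457 replicate 2 (0.101) and the NGP call without STM2457 replicate 3 (0.0626). BAMBI, a decoy receptor and known BMP target, measured 22.1 ± 3.65 and 23.0 ± 1.58 CPM in SK-N-BE2 and rose in NGP from 3.63 ± 0.407 to 21.8 ± 3.25 CPM (log2 fold change 2.59, SE 0.17, adjusted p = 1.79e-05 by edgeR). SKIL, a repressor of SMAD activity, fell in SK-N-BE2 by 1.28 (SE 0.09, adjusted p = 8.54e-08 by edgeR) and had -0.02 (SE 0.17, adjusted p = 0.942) in NGP, or -0.20 (adjusted p = 0.0407) without NGP DMSO replicate 1. TOB1, which restrains receptor-regulated SMADs, fell by 0.87 and 1.21 (edgeR adjusted p = 1.22e-06 and 0.000103), with 11.1% of its exon length shared with another gene. CTDSP1, a phosphatase of SMADs, fell by 0.61 and 0.60 (edgeR adjusted p = 2.65e-05 and 0.00557).

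Of the extracellular antagonists and modulators, 6 were called higher and 1 lower of 12 tested in SK-N-BE2, beside 26.9% and 27.8% of all genes, and 7 higher and 1 lower of 12 in NGP, beside 19.4% and 22.2%. The median log2 fold change of those tested was 0.42 and 0.67, beside -0.02 and -0.03 over all genes, and the list as a whole was not tested. FSTL1, a follistatin-like secreted protein that binds BMP4, rose from 22.1 ± 0.968 to 54.7 ± 1.34 CPM in SK-N-BE2 (edgeR adjusted p = 7.64e-08) and from 0.229 ± 0.164 to 1.52 ± 0.177 CPM in NGP (adjusted p = 0.00416). SOSTDC1, a secreted BMP antagonist, rose from 2.32 ± 0.846 to 4.98 ± 0.460 CPM (edgeR adjusted p = 0.00148) and from 0.275 ± 0.102 to 1.77 ± 0.237 CPM (adjusted p = 0.000539). SOST, its relative, rose in SK-N-BE2 from 79 to 475 reads (edgeR adjusted p = 9.89e-06) and had 4 and 0 reads in NGP.

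Of the other target genes, 2 of 11 rose and 3 fell in SK-N-BE2, where 26.9% of all genes rose and 27.8% fell. In NGP 6 of 13 rose and 1 fell, where 19.4% of all genes rose and 22.2% fell. The difference between lines was called for 7 of 13, each lower in SK-N-BE2, beside 17.0% of all genes called higher and 13.9% lower, and the list as a whole was not tested. MSX2, a homeobox target of BMP signals, fell in SK-N-BE2 from 17.7 ± 2.50 to 8.43 ± 1.16 CPM (edgeR adjusted p = 1.93e-05) and rose in NGP from 0.434 ± 0.239 to 4.28 ± 0.341 CPM (adjusted p = 0.000336). The MSX2 difference was -4.39 (SE 0.37, adjusted p = 1.90e-06 by edgeR). ATOH8, a bHLH factor that responds to BMP, rose by 1.64 (SE 0.23, adjusted p = 4.64e-05 by edgeR) and 1.11 (SE 0.22, adjusted p = 0.00452). TBX3, a T-box factor, rose by 0.54 and 1.38 (edgeR adjusted p = 0.000177 and 3.80e-05). ZNF503, a zinc finger gene with 12.1% of its exon length shared with another gene, fell by 1.12 and 1.41 (edgeR adjusted p = 0.000360 and 0.00130). MSX2 was thus the named target whose directions in the lines followed those of ID1 and ID2, while ATOH8 and TBX3 rose in both as ID3 and ID4 did.

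The E-proteins that ID proteins bind rose in SK-N-BE2, with log2 fold changes for TCF3 of 0.57 (SE 0.10, adjusted p = 0.000419 by edgeR), for TCF4 of 0.49 (SE 0.10, adjusted p = 0.000936) and for TCF12 of 0.29 (SE 0.09, adjusted p = 0.0139). The TCF12 call was lost in the joint fit (edgeR adjusted p = 0.107) and without DMSO replicate 3 (0.0587) or STM2457 replicate 2 (0.0585). In NGP the values were -0.10 (SE 0.12, adjusted p = 0.554 by edgeR), 0.31 (SE 0.17, adjusted p = 0.182) and -0.11 (SE 0.19, adjusted p = 0.685), and TCF12 was lower without NGP DMSO replicate 1 (-0.32, adjusted p = 0.00232). Of the whole list of E-proteins and partners, 3 of 8 rose and 4 fell in SK-N-BE2, beside 26.9% and 27.8% of all genes. In NGP 1 of 10 rose and 4 fell, beside 19.4% and 22.2% of all genes.

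NEUROD1, a proneural factor, fell in both lines, by 0.80 (SE 0.24, adjusted p = 0.0136 by edgeR) and 0.40 (SE 0.11, adjusted p = 0.0188). The NEUROD1 call was lost in SK-N-BE2 without DMSO replicate 2 (0.0560) or STM2457 replicate 2 (0.0556), and in NGP without DMSO replicate 3 (0.0817) or STM2457 replicate 1 (0.0529), 2 (0.0792) or 3 (0.0902), or in the joint fit (0.0918). LYL1, a bHLH factor of blood cells, fell by 1.14 in SK-N-BE2 (SE 0.16, adjusted p = 5.14e-05 by edgeR) and by 0.85 in NGP (SE 0.28, adjusted p = 0.0401), a call lost without any of 5 NGP libraries, at adjusted p between 0.0690 and 0.1205. TWIST1, a bHLH factor of mesenchyme, had -0.09 (SE 0.14, adjusted p = 0.608 by edgeR) in SK-N-BE2, where it was called lower without DMSO replicate 1 (-0.26, adjusted p = 0.0242), and rose by 0.78 (SE 0.15, adjusted p = 0.00449) in NGP.

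**Figure D4:**
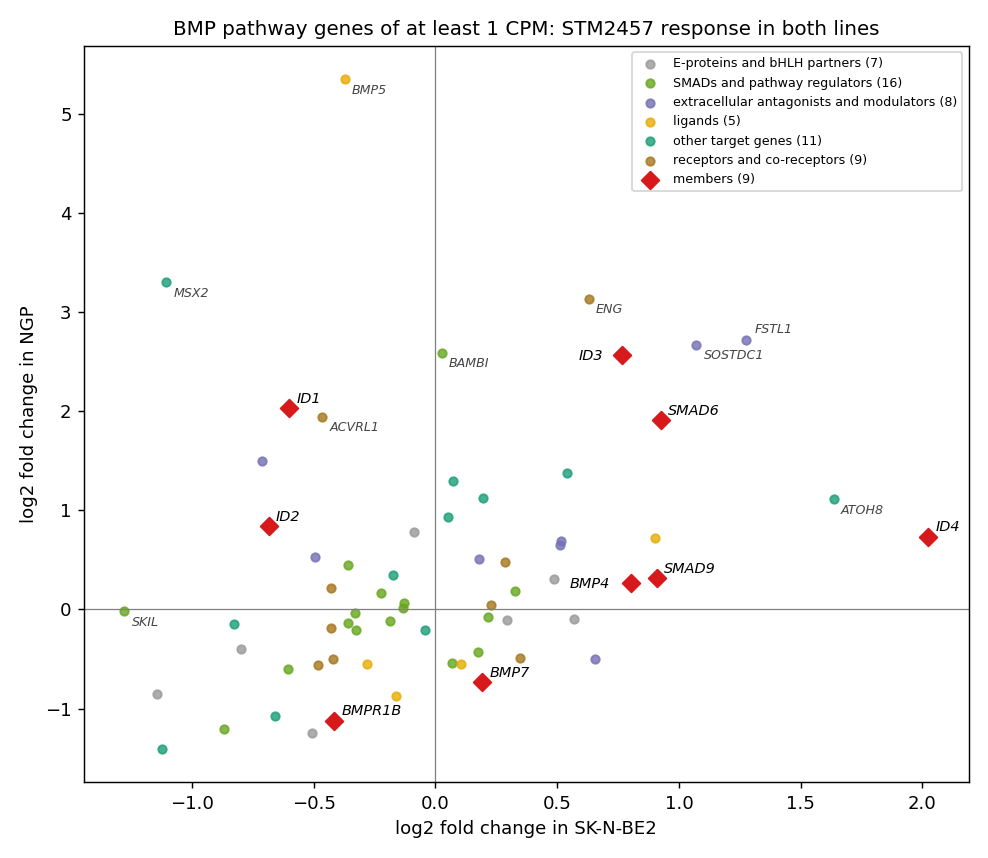
Each point is a gene tested in both lines, by its log2 fold change in SK-N-BE2 (x axis) and NGP (y axis), for 9 members (diamonds) and 56 pathway genes that averaged 1 CPM or more in a group (circles, coloured by list). ID1, ID2, MSX2 and ACVRL1 lie at the upper left, lower in SK-N-BE2 and higher in NGP, and ID3, ID4, SMAD6, FSTL1 and SOSTDC1 at the upper right.

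The summed level of genes that mark fibroblasts rose in both lines, as did SMAD6, ID3 and ID4. The sum rose more in NGP, and so did SMAD6 and ID3, whereas ID4 rose more in SK-N-BE2. The summed level of 5 such markers lay between 106 and 121 CPM in SK-N-BE2 with DMSO and between 192 and 207 CPM with STM2457, and between 57.3 and 70.1 CPM and between 271 and 306 CPM in NGP. COL1A2, a defining collagen of fibroblasts, was at or below 0.0588 CPM on average in every group, while PDGFRB went from 29.7 ± 3.96 to 139 ± 9.12 CPM in NGP. The part of these markers in the rises of SMAD6, ID3 and ID4 was not tested. In bulk RNA, a change in the number of cells of a kind and a change in RNA per cell cannot be told apart.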

How the data were processed

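The authors deposited whole-number counts of reads per gene, 1 table per library, not normalized. Per the file headers, they were made with featureCounts 2.0.5 on exons of GENCODE 33 protein-coding genes, with paired input, no strand option and no multi-mapping reads. Read pairs were not counted as 1 unit, so both reads of a fragment can be counted. Per the submitters' processing notes, FastQC 0.11.5, Trimmomatic 0.36, HISAT2 2.1.0, Subread 1.5.3 and GRCh38 were named. Counting limits cover counting error only.

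Samples were grouped by their titles. Each line's 6 libraries were fitted in edgeR 4.0.16 under R 4.3.3. Low genes were removed by filterByExpr with a minimum count of 10, libraries were scaled by TMM, and quasi-likelihood p-values were adjusted by Benjamini-Hochberg over all genes tested. The difference between the responses and the difference between the DMSO groups were contrasts of 4 group means over 12 libraries. SE is the size of the log2 fold change divided by the square root of F. Levels of different genes were compared as CPM per kilobase of deposited exon length, in place of the TPM first intended, to keep the TMM scaling between libraries. No spike-in was used, so changes are relative. Every pair of replicates differed by more than sampling noise (chi-square per degree of freedom 2.83 to 97.0), so all libraries were kept. The scripts were tested on simulated data.

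The members and lists were chosen with earlier results of these data known. All members were named. From each list, up to 3 called genes with the greatest log2 fold change in each line and at least 1 CPM in the higher group were named, plus SMAD1, SMAD4, SMAD5, SMAD7, BMPR1A, BMPR2, ACVR1 and the 3 E-proteins, and some genes that met this rule are not reported here. Alternatives were DESeq2 1.42.0, DESeq2 size factors, upper-quartile factors, other filters, halved counts, a joint fit, a replicate block and leaving out each library. Sequences of the members were taken from RefSeq on GRCh38 and GENCODE 44.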

Additional observations from a re-analysis of the deposited data

Results flagged for a closer look

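For 8 of the 9 members tested, the response to STM2457 differed between the lines by a direct test of the difference (edgeR contrast over 12 libraries, SK-N-BE2 minus NGP, log2 scale). ID1 differed by -2.61, ID2 by -1.51, ID3 by -1.79 and SMAD6 by -0.97, each with the lower response in SK-N-BE2. ID4 differed by 1.30, BMP7 by 0.94, BMPR1B by 0.72 and SMAD9 by 0.60, each with the higher response in SK-N-BE2. Of all genes tested, 30.9% differed by this test. Line, dose and a possible sequencing run cannot be told apart in these differences.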

How the results depend on the processing

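Of 36 results on single members, 32 kept their direction of call and their side of the threshold under every alternative run, and of 590 alternatives 579 did so, 10 lost a call and 1 gained one. The lost calls were the rise of ID4 in NGP, the difference of SMAD9 and the difference of ID1 between the DMSO groups (0.46 to 0.90 without single libraries, adjusted p 0.0765 without SK-N-BE2 DMSO replicate 3, 0.0705 without NGP DMSO replicate 2 and 0.0654 without NGP DMSO replicate 3). SMAD9 in NGP was called in the joint fit (0.34, edgeR adjusted p = 0.0369). Over all alternatives, the members called numbered 7 in SK-N-BE2, 6 to 8 in NGP, 7 to 8 for the difference between lines and 5 to 6 between the DMSO groups. Called genes ranged from 6497 to 7849, 3816 to 7897, 3701 to 6274 and 9207 to 11072 in the same order. BMPR2 in NGP ranged from -0.20 to 0.21 when single libraries were left out, turning from 0.05 to -0.20 without NGP DMSO replicate 1, and the cause was not tested. With a replicate block, the SK-N-BE2 response had 7522 called genes, the NGP response 5026 and the difference 4025, with 7, 7 and 8 members among them. The block changed no member call, but BMPR2 in SK-N-BE2 (adjusted p 0.0585) and LYL1 (0.0648) and GDF6 (0.0505) in NGP were no longer called. Same-numbered libraries deviated from their group means with correlations of -0.12, 0.13 and 0.01 (SK-N-BE2) and 0.01, -0.11 and 0.07 (NGP). Differently numbered SK-N-BE2 libraries reached -0.27 and 0.25. These values therefore cannot tell whether same-numbered libraries were paired. Depth limits BMP4 and NOG, and 3 replicates limit the rest.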
